A study of Mus musculus with 19 samples.

Results

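Reactive astrocyte genes are transcripts that astrocytes raise when brain tissue is injured or inflamed. Their levels were described here for 10 such genes, Gfap, Vim, Serpina3n, Aspg, Osmr, Cd44, Lcn2, S1pr3, Timp1 and Cxcl14, of 25599 genes tested. The members were chosen by name, as genes known to be raised in reactive astrocytes, with earlier results of these data known. Their probes were found by matching RefSeq transcripts. All 10 genes passed the filter on dim probes, with 13 of their 16 probes kept. Hippocampal RNA of 8-month-old mice was hybridised to Agilent arrays, 1 array per mouse. The first group held wild-type (WT) littermates given the vehicle, DMSO (n = 6). The second held APP/PS1 mice given the same vehicle (n = 7), and the third held APP/PS1 mice given urolithin A (UA) in that vehicle (n = 6). UA, a compound that gut bacteria make from dietary ellagitannins, was given by gavage at 200 mg per kg per day from the age of 6 months. The vehicle and the gavage were common to all 3 groups. APP/PS1 mice carry mutant amyloid precursor protein and presenilin 1 transgenes under a mouse prion promoter and deposit amyloid.

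Astrocytes that meet plaques, cytokines or damaged cells become reactive. They thicken their processes with the intermediate filaments GFAP and vimentin, and they secrete protease inhibitors, iron-binding proteins and matrix regulators. Cytokines of the interleukin-6 family, acting through receptors such as OSMR that pair with gp130, drive many of these genes through the transcription factor STAT3. None of the 10 genes is restricted to astrocytes in every tissue: vimentin is also made by vessel, choroid plexus and ependymal cells, and CD44 and S1PR3 by other cell types too. In hippocampal tissue as a whole, more cells of a type and more RNA per cell cannot be told apart.

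Levels are log2 of the processed array signal over the 75th percentile of that array, so a difference of 1 is a doubling. That percentile lay between 450 and 1199 intensity units, and the share of probes well above background from 51.4% to 59.5%. The samples were spread over 3 slides. All 6 WT arrays shared slide 1 with 2 vehicle arrays, the other 5 vehicle arrays shared slide 2 with 3 UA arrays, and slide 3 carried the remaining 3 UA arrays. UA and WT shared no slide, so group and slide cannot be told apart between them. Prnp, whose promoter drives the transgenes, was at 7.05 or below on every WT array and at 8.32 or above on every APP/PS1 array, as the genotype labels say. By Xist and Y-linked genes, 1 WT, 3 vehicle and 1 UA arrays came from females. All 12 astrocyte identity genes, 8 neuron markers and 6 hippocampal neuron markers looked for were bright enough to test. So were all 16 choroid plexus and 7 oligodendrocyte markers, so passing this filter does not tell tissues apart.

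The first comparison, of APP/PS1 vehicle with WT, concerns the transgenes without treatment. Gfap, Aspg and Osmr rose, by 1.0, 0.99 and 0.72 on the log2 scale, and no member fell. These 3 of 10 members stand beside 2.69% of all genes called higher in this comparison by limma at an adjusted p under 0.05, and 2.38% called lower, or 5.07% in either direction. The same 3 members were those whose vehicle and WT arrays did not overlap, beside 2.34% of all genes. Of all 10 differences, 9 were above 0, with a median of 0.42 against 0.0025 over all genes tested. The members were chosen with earlier results of these data known, so these values describe the set and do not test it.

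The promoters of the 3 genes that rose are shown first because a STAT3-driven programme is the usual account of this gene class. They run from 250 bases before to 30 bases after the gene start of the RefSeq promoter table, build GRCm38.p6, 5′ to 3′ on the gene's strand. Gfap is at chr11:102897171-102897450, minus strand, Aspg at chr12:112106433-112106712, plus strand, and Osmr at chr15:6874284-6874563, minus strand. Capitals mark a match to a STAT motif, TTCNNNGAA, or to an AP-1 motif, TGANTCA, searched on both strands, and the 2 motifs did not overlap in any member.
Gfap: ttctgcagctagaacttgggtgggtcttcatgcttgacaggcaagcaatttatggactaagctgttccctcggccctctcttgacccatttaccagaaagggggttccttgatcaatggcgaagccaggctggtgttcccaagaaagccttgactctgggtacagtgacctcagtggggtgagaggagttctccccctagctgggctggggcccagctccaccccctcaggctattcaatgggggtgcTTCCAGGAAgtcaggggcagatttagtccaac
Aspg: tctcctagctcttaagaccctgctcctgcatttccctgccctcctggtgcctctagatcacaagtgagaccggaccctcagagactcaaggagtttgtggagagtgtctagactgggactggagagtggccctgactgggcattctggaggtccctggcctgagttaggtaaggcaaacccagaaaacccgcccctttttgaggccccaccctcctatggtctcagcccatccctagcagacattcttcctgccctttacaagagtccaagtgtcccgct
Osmr: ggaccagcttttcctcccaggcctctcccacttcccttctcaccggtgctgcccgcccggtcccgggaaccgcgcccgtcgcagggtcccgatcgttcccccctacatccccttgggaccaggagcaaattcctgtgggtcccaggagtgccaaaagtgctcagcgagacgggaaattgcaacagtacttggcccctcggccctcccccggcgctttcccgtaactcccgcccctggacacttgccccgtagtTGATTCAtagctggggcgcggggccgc
Gfap held 1 STAT match, whose first base lies at -2 from the start. Osmr held 1 AP-1 match, whose first base lies at 4 after the start, and the gene model of the RefSeq gene table reaches further upstream, to base 6874968 of chromosome 15. Aspg held neither set of letters in this window. Promoters of all 10 members were in the table. Besides Gfap, only Cxcl14 had a STAT match, at -191, and besides Osmr no member had an AP-1 match. The Cxcl14 gene model also reaches further upstream, to base 56296811 of chromosome 13, so its STAT match lies inside that gene model. Of 32851 promoters of 300 bases, 8.3% held the STAT letters and 7.81% the AP-1 letters, so a match in 2 or 1 of 10 is a description of these sequences only.

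**Figure D1:**
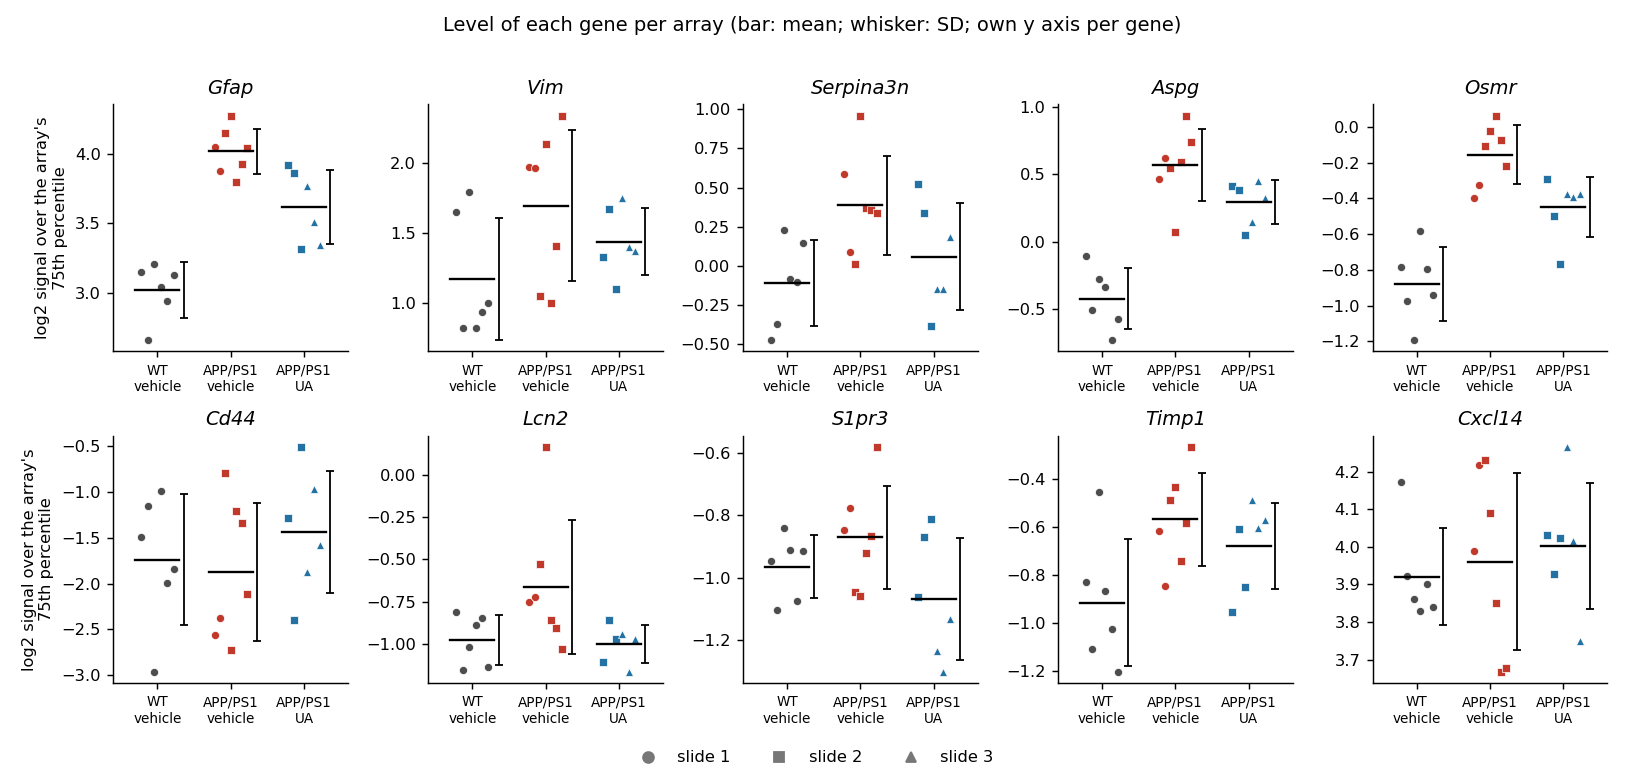
Level of each member per array, as log2 signal over the array's 75th percentile, with points shaped by slide, a bar for the group mean and a whisker for the SD (6 WT, 7 APP/PS1 vehicle and 6 UA arrays; each gene has its own y axis, so heights are not comparable between genes). For Gfap, Aspg and Osmr every vehicle array lies above every WT array, and for the other 7 genes these groups overlap.

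Gfap encodes the glial fibrillary acidic protein, the filament that defines reactive astrocytes, on chromosome 11 (102887336 to 102897200, GRCm38.p6). Its level on WT arrays ran from 2.66 to 3.20 (median 3.09), on vehicle arrays from 3.80 to 4.28 (median 4.05) and on UA arrays from 3.31 to 3.92 (median 3.64). The WT arrays were the lowest and the vehicle arrays the highest, with no overlap between them, and the UA arrays lay above every WT array with 2 of them inside the vehicle range. Between vehicle and WT the difference was 1.0 (SE 0.12, limma adjusted p = 5.68e-05). Within slide 1 alone, with 2 vehicle arrays, it was 0.95 (limma adjusted p = 0.0877). Against vehicle, UA arrays were lower by -0.40 (SE 0.12, limma adjusted p = 0.149), with all 6 below the vehicle mean. Against WT, UA arrays were at 0.60 (SE 0.12, limma adjusted p = 0.0619). That last value passed the threshold without UA replicate 3 (0.66, limma adjusted p = 0.0471) or without UA replicate 6 (0.66, limma adjusted p = 0.0451).

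A second Gfap probe, matched to the transcript NM_010277 where the brighter one is matched to NM_001131020, gave larger differences. In a limma fit over all kept probes it was higher in vehicle than in WT by 1.36 (SE 0.12, adjusted p = 2.02e-06), against 1.0 for the brighter probe. For UA against vehicle the second probe gave -0.58 (SE 0.12, limma adjusted p = 0.0882). Its UA and vehicle arrays did not overlap, beside 0.879% of all genes by their brightest probe. Against WT the UA arrays were higher by 0.77 at this probe (SE 0.12, limma adjusted p = 0.00949), so the choice of probe decides whether Gfap passed the threshold there. The level of the second probe minus that of the brighter one, taken within each array, was -1.08 on average in WT, -0.73 in vehicle and -0.91 in UA. Vehicle was thus 0.36 above WT in this difference, with the second probe closer to the brighter one (2-sided exact permutation p = 0.00233, adjusted over 3 comparisons 0.00699). From vehicle to UA the difference changed by -0.18 (exact permutation p = 0.0309, adjusted 0.0309), and UA stood 0.17 above WT (exact permutation p = 0.0195, adjusted 0.0292). Such a ratio shows that both probes changed unequally, and whether transcripts or probe response differ was not tested.

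**Figure D2:**
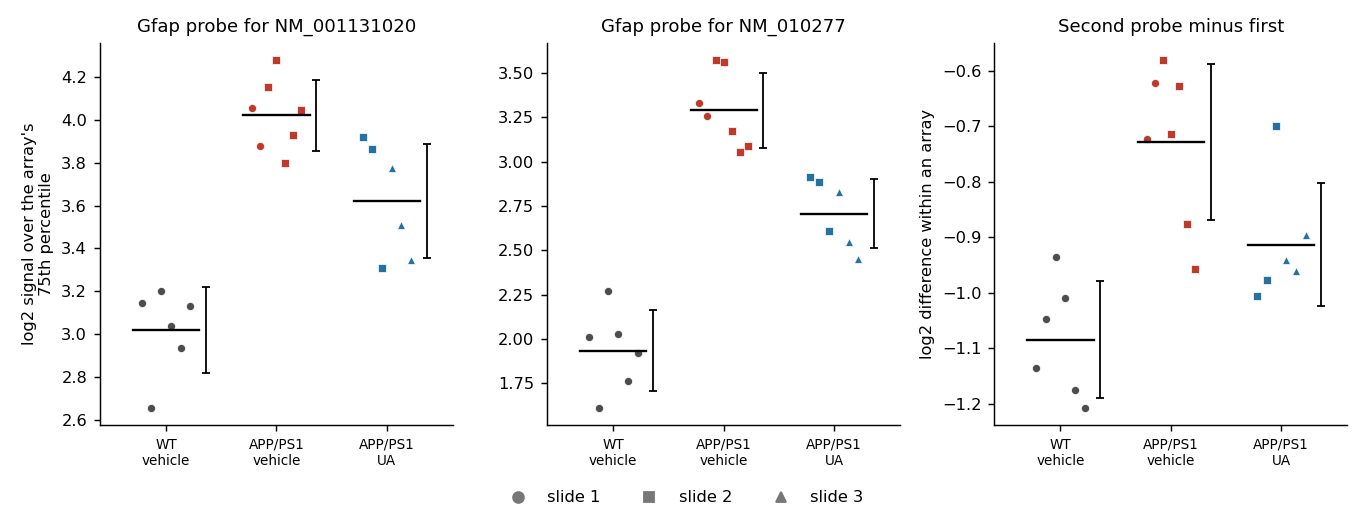
The 2 Gfap probes per array (log2 signal over the 75th percentile, left and middle) and the second minus the first within each array (right), with bars for means and whiskers for SD in 6 WT, 7 vehicle and 6 UA arrays. At the second probe the 3 groups do not overlap, from 1.61 to 2.27 in WT, 2.45 to 2.91 in UA and 3.05 to 3.57 in vehicle. How often the 3 groups separate over all probes was not computed.

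Vim encodes vimentin, the filament partner of GFAP in reactive astrocytes and a general filament of mesenchymal, vessel and ependymal cells. Its level ran from 0.83 to 1.79 in WT (median 0.97), from 1.0 to 2.34 in vehicle (median 1.96) and from 1.10 to 1.75 in UA (median 1.39). The groups overlapped widely, and 2 of 7 vehicle arrays lay near the bulk of the WT arrays. The difference between vehicle and WT was 0.52 (SE 0.23, limma adjusted p = 0.171). The difference between UA and vehicle was -0.26 (limma adjusted p = 0.598) and between UA and WT it was 0.27 (limma adjusted p = 0.751). Of the other filament genes tested, nestin, synemin, alpha-internexin and plectin, 0 of 4 passed the threshold in any comparison. Nes, the nestin gene of progenitors and reactive astrocytes, was at 0.33 between vehicle and WT (limma adjusted p = 0.085).

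Among the receptors and surface proteins, Osmr, the oncostatin M receptor subunit, was the one that rose. Its level ran from -1.19 to -0.58 in WT (median -0.87), from -0.40 to 0.06 in vehicle (median -0.11) and from -0.77 to -0.29 in UA (median -0.39). Vehicle arrays all lay above WT arrays, and 1 UA array reached down into the WT range. The difference between vehicle and WT was 0.72 (SE 0.10, limma adjusted p = 0.000466), which is 1.65-fold. With slide as a fixed block it was 0.52 (limma adjusted p = 0.123). All WT arrays are on slide 1, so this is by design the difference within slide 1 (limma adjusted p = 0.159), from the same arrays. The 2 vehicle arrays of slide 1, at -0.40 and -0.32, were the lowest vehicle arrays. UA differed from vehicle by -0.30 (SE 0.10, limma adjusted p = 0.203), with 6 of 6 UA arrays below the vehicle mean, and by -0.45 within slide 2 (limma adjusted p = 0.904). From WT, UA differed by 0.43 (SE 0.11, limma adjusted p = 0.165). A second Osmr probe was well above background on 2 of 19 arrays, both vehicle, and was not tested.

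Cd44 encodes the hyaluronan receptor of migrating and reactive cells. Its SD was the largest of any member in each group, at 0.71, 0.75 and 0.67 in WT, vehicle and UA. The level of its brightest probe ran from -2.96 to -0.98 in WT (median -1.66), from -2.73 to -0.80 in vehicle (median -2.11) and from -2.40 to -0.51 in UA (median -1.43). All 3 groups overlapped over most of their range. Vehicle differed from WT by -0.14 (SE 0.37, limma adjusted p = 0.846, 95% interval from -0.92 to 0.65). For UA against vehicle the value was 0.44 (SE 0.37, limma adjusted p = 0.583). A second, dimmer Cd44 probe gave the other sign between vehicle and WT, 0.16 (SE 0.17, limma adjusted p = 0.606), and the last Cd44 probe was never well above background.

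S1pr3 encodes a receptor for sphingosine 1-phosphate found on astrocytes and vessel cells. Its level ran from -1.10 to -0.84 in WT (median -0.93), from -1.06 to -0.58 in vehicle (median -0.87) and from -1.30 to -0.81 in UA (median -1.10). Vehicle differed from WT by 0.09 (SE 0.09, limma adjusted p = 0.547). For UA against vehicle it was -0.20 (SE 0.09, limma adjusted p = 0.313). The 3 UA arrays of slide 3, from -1.30 to -1.13, all lay below the 3 UA arrays of slide 2, from -1.06 to -0.81. Within slide 2 the difference between UA and vehicle was -0.02 (limma adjusted p = 0.981), and slide 3 holds no other group.

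Aspg encodes an asparaginase and lysophospholipase whose transcript is used as a marker of reactive astrocytes. It lies on chromosome 12 (112106683 to 112127573, GRCm38.p6). Its level ran from -0.73 to -0.11 in WT (median -0.42), from 0.07 to 0.94 in vehicle (median 0.59) and from 0.05 to 0.45 in UA (median 0.35). Every APP/PS1 array, treated or not, lay above every WT array, and the UA arrays lay within or just under the vehicle range. The difference between vehicle and WT was 0.99 (SE 0.12, limma adjusted p = 0.000121), which is 1.99-fold, and 0.97 within slide 1 (limma adjusted p = 0.0877). For UA against vehicle the value was -0.27 (SE 0.12, limma adjusted p = 0.301).

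Aspg was also the 1 member that passed the threshold between UA and WT, beside 0.0898% of all genes called higher and 0.00391% called lower there, or 0.0938% in either direction. The difference was 0.72 (SE 0.13, limma adjusted p = 0.034), with 6 of 6 UA arrays above the WT mean. This call held in 10 of 27 alternatives, over which the difference ran from 0.59 to 0.78 on the log2 scale. It was lost without WT replicate 2, 4, 5 or 6 and without UA replicate 1, 2, 4, 5 or 6, with limma adjusted p from 0.053 to 0.108. The call was also lost in other alternatives, named below, such as slide as a fixed block. The largest limma adjusted p over the 27 alternatives was 0.944. The groups of Gfap and Aspg did not overlap between UA and WT, beside 1.05% of all genes, and those of the other 8 members did.

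Of the secreted members, none passed the threshold in any of the 3 comparisons. Serpina3n, a serine protease inhibitor of the acute phase, ran from -0.47 to 0.23 in WT (median -0.09), from 0.01 to 0.96 in vehicle (median 0.36) and from -0.38 to 0.52 in UA (median 0.02). Every vehicle array lay above the WT mean, but the ranges overlapped. Vehicle differed from WT by 0.50 (SE 0.17, limma adjusted p = 0.0875), and UA from vehicle by -0.33 (SE 0.17, limma adjusted p = 0.356). Serpina3n belongs to a family of close copies, and a probe may also bind their transcripts. Of its paralogs, 5 of 10 were bright enough to test and 0 passed, with a median difference of 0.29 between vehicle and WT.

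Timp1, an inhibitor of matrix metalloproteinases, ran from -1.20 to -0.45 in WT (median -0.95), from -0.85 to -0.27 in vehicle (median -0.58) and from -0.95 to -0.49 in UA (median -0.61). One WT array, replicate 3 at -0.45, stood above the others, of which the next was at -0.83. Vehicle differed from WT by 0.35 (SE 0.12, limma adjusted p = 0.0915), and without WT replicate 3 by 0.44 (limma adjusted p = 0.0211). UA differed from vehicle by -0.11 (SE 0.12, limma adjusted p = 0.666), and by -0.30 within slide 2, where 3 of the 6 UA arrays lie.

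Lcn2, the iron-siderophore carrier lipocalin 2 and one of the strongest astrocyte genes after bacterial endotoxin, ran from -1.15 to -0.81 in WT (median -0.95), from -1.03 to 0.16 in vehicle (median -0.75) and from -1.16 to -0.86 in UA (median -0.97). A single vehicle array, replicate 4, stood apart at 0.16, with the next at -0.53. Vehicle differed from WT by 0.31 (SE 0.14, limma adjusted p = 0.193) and by 0.18 without that array (limma adjusted p = 0.245). UA differed from vehicle by -0.34 (SE 0.14, limma adjusted p = 0.266) and by -0.20 without it (limma adjusted p = 0.29). A second, dimmer Lcn2 probe was also highest on that array, at -1.75 against -3.67 or lower on every other array. The same array had the highest Serpina3n level. Neutrophils carry much Lcn2 elsewhere in the body. Of 7 neutrophil markers looked for, 4 could be tested, and their mean level on that array was -3.23, the median of the vehicle group. The part of neutrophils in the Lcn2 level of that array was not tested.

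Cxcl14, a chemokine also made by hippocampal interneurons, had the smallest differences of the members between vehicle and WT and between UA and vehicle. Its level ran from 3.83 to 4.17 in WT (median 3.88), from 3.67 to 4.23 in vehicle (median 3.99) and from 3.75 to 4.27 in UA (median 4.02). Vehicle differed from WT by 0.04 (SE 0.11, limma adjusted p = 0.839, 95% interval from -0.18 to 0.26). UA differed from vehicle by 0.04 as well (limma adjusted p = 0.875) and from WT by 0.08 (limma adjusted p = 0.851). Between UA and WT, Lcn2 had the smallest difference, -0.03 (limma adjusted p = 0.977).

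**Figure D3:**
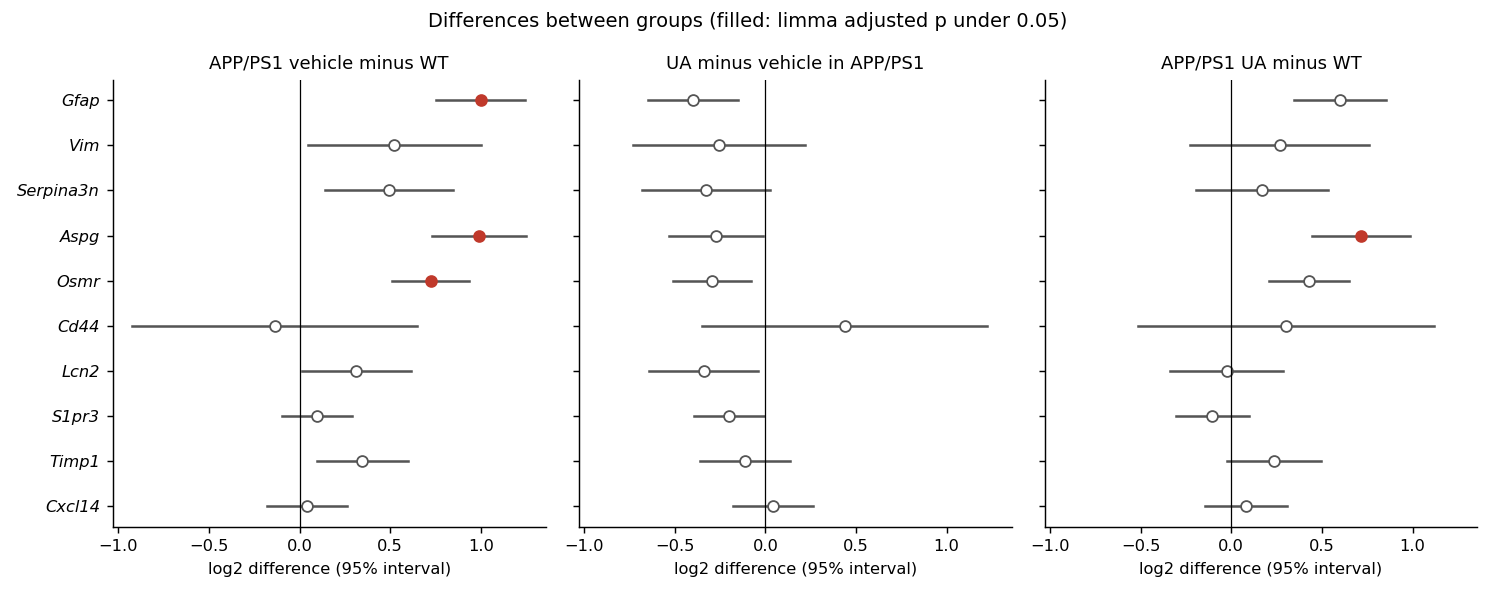
Differences of the 10 members on the log2 scale with 95% intervals of the limma fit, in APP/PS1 vehicle minus WT (left), UA minus vehicle (middle) and UA minus WT (right); filled points passed an adjusted p under 0.05. On the left 3 points are filled, in the middle none, and on the right Aspg alone.

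The comparison of UA with vehicle shows what differed with the compound in APP/PS1 mice. No member passed the threshold, and neither did any of the 25599 genes (0% called by limma, with 3956 genes at an unadjusted p under 0.05). The 10 differences had a median of -0.27 against -0.0073 over all genes, and 8 of 10 were below 0. By the brightest probe of each gene, the UA and vehicle arrays overlapped for all 10 members, and for 0.879% of all genes they did not. At the second Gfap probe, with a difference of -0.58, the UA and vehicle arrays did not overlap. Gfap was the lowest at -0.40, followed by Lcn2 at -0.34 and Serpina3n at -0.33, while Cd44 and Cxcl14 were above 0. For Gfap, Aspg, Osmr and Lcn2 6 of 6 UA arrays lay below the vehicle mean. For Lcn2 that mean, -0.66, includes vehicle replicate 4 at 0.16, and the vehicle median was -0.75. Without that array the Lcn2 difference was -0.20. This comparison shares its 7 vehicle arrays with the comparison of vehicle with WT, so opposite signs in both are not independent. The UA group's means for Gfap, Aspg and Osmr, 3.62, 0.29 and -0.45, lay between those of WT, 3.02, -0.42 and -0.88, and those of vehicle, 4.02, 0.57 and -0.15.

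Genes of related classes were set beside the members. Between vehicle and WT, 1 of 3 tested genes of the other pan-reactive genes rose, Cxcl10, an interferon-induced chemokine, by 1.72 (SE 0.45, limma adjusted p = 0.0376). Of 11 genes described as A1-type, the class induced by inflammatory signals, 4 rose and none fell: the immunoproteasome subunit Psmb8 by 0.79 (limma adjusted p = 0.000966), the granule proteoglycan Srgn by 0.57 (0.00743), and the class I antigen genes H2-D1 by 0.65 (0.017) and H2-T23 by 0.69 (0.0183). The list's median was 0.57, and microglia also express these 4 genes. Of 9 tested genes described as A2-type, 1 rose, the endotoxin co-receptor Cd14, by 0.88 (SE 0.10, limma adjusted p = 5.68e-05), which microglia also carry. Of 10 genes described as disease-associated in astrocytes, 2 rose, the transcription regulator Id3 by 0.46 (limma adjusted p = 0.0125) and the tetraspanin Cd9 by 0.76 (limma adjusted p = 0.0342).

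Of 12 genes of general astrocyte identity, 2 rose, the water channel Aqp4 by 0.47 (SE 0.09, limma adjusted p = 0.00765) and the calcium-binding protein S100b by 0.30 (SE 0.08, limma adjusted p = 0.0418). The list's median difference was 0.21, beside 0.42 for the 10 members, and 11 of its 12 differences were above 0. Of the gp130 and STAT3 pathway that receives the OSMR signal, 0 of 12 genes passed the threshold, with Stat3 at 0.28 (limma adjusted p = 0.0781), Il6st, the gp130 gene, at 0.12 (0.462) and the feedback inhibitor Socs3 at 0.15 (0.487). The ligand gene Osm was at 0.87 (limma adjusted p = 0.174), and Il6 and Lif were too dim to test. Osm was itself dim, at -5.16 in WT and -4.28 in vehicle on average. It was well above background on 1 of 6 WT and 5 of 7 vehicle arrays. Of 20 ligands, substrates and sister genes of the members that were tested, such as the sphingosine 1-phosphate receptors, the metalloproteinases and Timp2 to Timp4, 0 passed, with a median of 0.07. In the lists of these 2 paragraphs no gene was called between UA and vehicle or between UA and WT.

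The complement subunits C1qa, C1qb and C1qc, which microglia release and which with Il1a and Tnf induce A1-type genes in culture, rose by 0.86 (SE 0.09, limma adjusted p = 1.21e-05), 0.94 (SE 0.10, 3.27e-05) and 0.93 (SE 0.10, 3.76e-05). Tnf was at -0.18 (limma adjusted p = 0.565), and Il1a was too dim to test. Against vehicle, UA arrays were at -0.44, -0.54 and -0.45 for the 3 subunits (limma adjusted p = 0.0853, 0.0853 and 0.105).

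**Figure D4:**
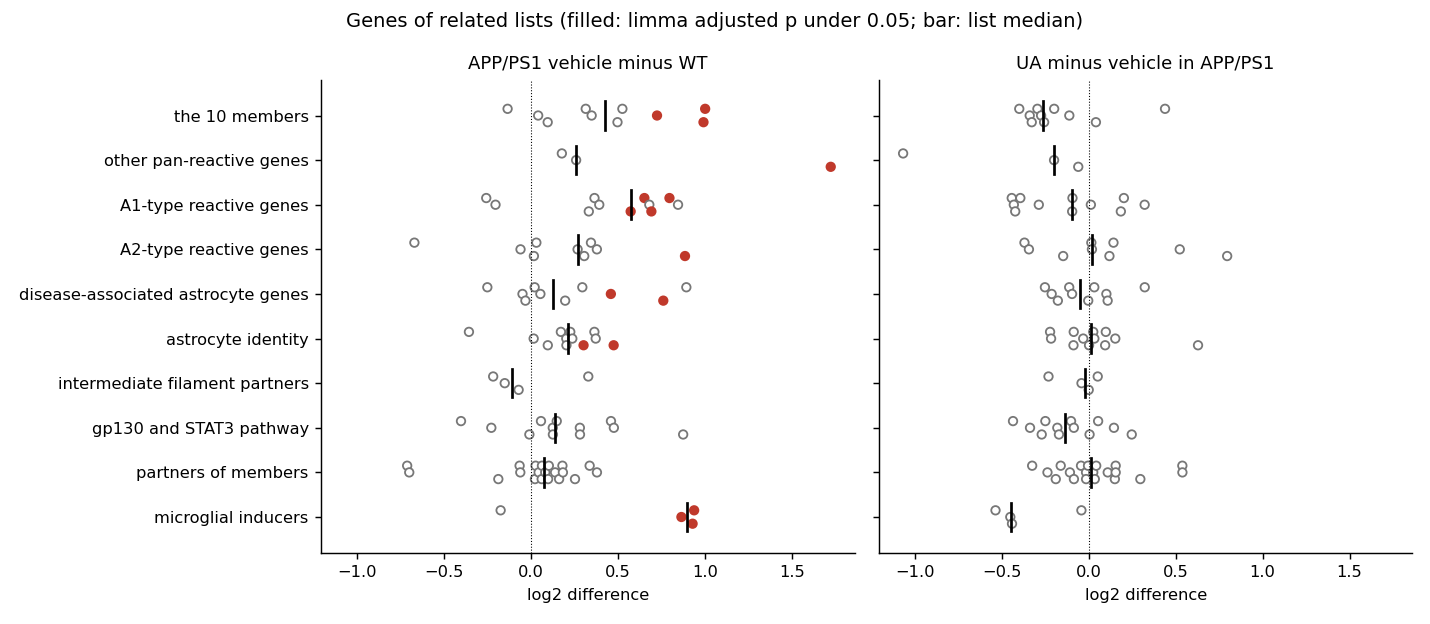
Differences of the 10 members and of the genes of 9 related lists on the log2 scale, in APP/PS1 vehicle minus WT (left) and UA minus vehicle (right); each point is a gene, filled where limma's adjusted p was under 0.05, and each bar a list's median. On the left the members' median is 0.42 and that of the microglial inducers 0.90, and on the right no point is filled.

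Markers of other cell types moved with the groups beside the members. Of 12 microglia markers, 9 rose between vehicle and WT, among them Trem2 by 1.64 and Tyrobp by 1.55 (limma adjusted p = 4.58e-07 and 1.14e-06). Their mean level per array ran from 1.85 to 2.16 in WT, from 3.09 to 3.41 in vehicle and from 2.66 to 3.15 in UA, and their summed signal, in multiples of the 75th percentile, from 124 to 164, from 182 to 240 and from 151 to 210. The part of microglia in the rises of Gfap, Aspg and Osmr was not tested.

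Choroid plexus, the tissue that makes cerebrospinal fluid next to the hippocampus, showed in part of the arrays. The mean level of its 16 markers was above 0 on 1 of 6 WT, 5 of 7 vehicle and 4 of 6 UA arrays, and their summed signal ran from 9.0 to 934 in WT, from 1.89 to 1141 in vehicle and from 4.76 to 822 in UA. Vim followed this split in each group. It ran from 1.41 to 2.34 on the vehicle arrays above 0 and from 1.0 to 1.05 on those below, and in WT it was 1.79 on the array above 0 against 0.83 to 1.65 on the others. In UA the ranges were 1.38 to 1.75 and 1.10 to 1.33. With the choroid plexus level as a covariate the Vim difference between vehicle and WT was 0.29 (SE 0.17, limma adjusted p = 0.341). Gfap, by contrast, ran from 3.88 to 4.28 on the vehicle arrays above 0 and from 3.80 to 4.15 on those below. With the same covariate Gfap, Aspg and Osmr kept their calls, at 0.98, 0.97 and 0.76 (limma adjusted p = 0.000245, 0.000506 and 0.000696). The WT array with choroid plexus signal, replicate 3, is the one with the high Timp1 level.

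Cd44 ran the other way, from -2.73 to -1.34 on the vehicle arrays above 0 and from -1.21 to -0.80 on those below. Vim and Cd44 also varied with the level of oligodendrocyte markers within groups. After each group's mean was subtracted, Vim correlated with the mean level of 7 oligodendrocyte markers over 19 arrays at r = 0.84 (permutation p = 3e-05, 8e-04 adjusted over 80 relations) and Spearman's rho = 0.79 (permutation p = 6e-05, adjusted 0.0016). For Cd44 the values were r = -0.87 (permutation p = 1e-05, the smallest that 100000 permutations can give, adjusted 8e-04) and rho = -0.85 (permutation p = 4e-05, adjusted 0.0016). Without the 2 arrays farthest from the median of the marker level r was 0.77 for Vim and -0.82 for Cd44. Within slide 1 it was 0.84 and -0.81, and within slide 2 0.86 and -0.93, over 8 arrays each. Both genes were also related to the mean level of 6 hippocampal neuron markers, Vim at r = 0.72 and Cd44 at r = -0.85 (permutation p adjusted 0.013 and 8e-04), with rho = 0.71 and -0.86 (adjusted 0.0162 and 0.0016). These 4 were the relations of the 80 in which Pearson's r passed an adjusted p under 0.05. Aspg with 9 meningeal and fibroblast markers passed by rank alone, at rho = 0.70 (permutation p adjusted 0.0387) and r = 0.64 (adjusted 0.104). The 80 relations left out the choroid plexus, ependyma and neutrophil markers. With choroid plexus and ependyma markers r was 0.72 and 0.69 for Vim and -0.72 and -0.77 for Cd44. For Timp1 these values were 0.62 and 0.39, and none of them was tested. Of the 7 oligodendrocyte markers, 0 were called in any comparison. Their summed signal ran from 185 to 549 in WT, from 116 to 511 in vehicle and from 172 to 461 in UA. With their level as a covariate the Cd44 difference between vehicle and WT turned from -0.14 to 0.10 (SE 0.19, limma adjusted p = 0.764). The part of tissue composition in the levels of Vim and Cd44 was not tested further.

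**Figure D5:**
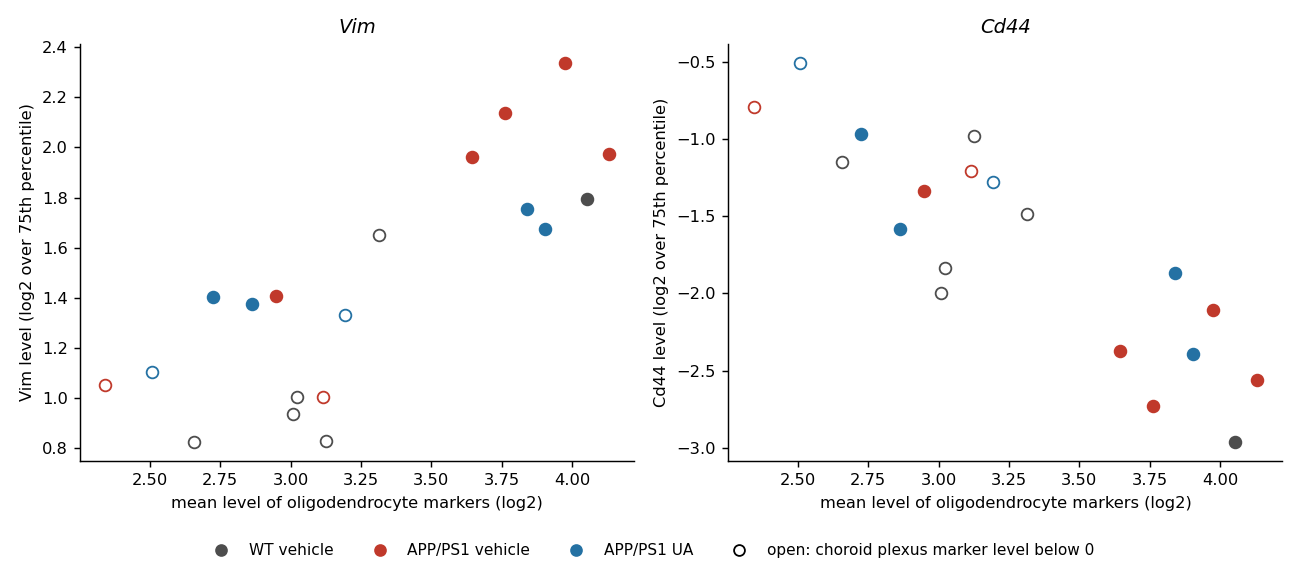
Level of Vim (left) and Cd44 (right) on each of 19 arrays against the mean level of 7 oligodendrocyte markers, both as log2 signal over the 75th percentile, coloured by group, with open points where the choroid plexus marker level was below 0. Vim is higher and Cd44 lower toward the right, and filled points for Vim lie at 1.38 or above.

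The members also differed in which other genes followed them from array to array. The measure was Pearson's r over the 19 arrays after each group's mean was subtracted, taken over 14984 genes, and the highest 3 of so many are high by choice. For Gfap these were Cnih2 (0.88), Trappc12 (0.79) and Lsm8 (0.77). Vim went with Naaa (0.93), Cd109 (0.92) and Dnm2 (0.92). Cd44 went with Fxyd6 (0.94), Dpysl4 (0.93) and Sstr1 (0.93). Timp1 went with Ltc4s (0.91), Agpat2 (0.90) and Dmrta2 (0.88). Serpina3n went with Tanc1 (0.87), Ascc3 (0.86) and Acvr1 (0.85), and Cxcl14 with Plekho1 (0.88), Kcmf1 (0.86) and Gpr61 (0.84). S1pr3 went with Gk5 (0.84), Wasf2 (0.83) and Ccdc86 (0.83), and Lcn2 with Aldh1l2 (0.83), Il17rc (0.83) and Prkce (0.81). The lowest values were those of Osmr, with Tmem185b (0.78), Edem3 (0.77) and Gjd2 (0.76), and of Aspg, with Pkn3 (0.76), Pou2af1 (0.76) and Zfp560 (0.75). No member was among the first 3 of another member. The arrays share slides and tissue composition, and no test was made.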

How the data were processed

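Agilent Feature Extraction 12.0.3.1, run with a protocol for 2-colour arrays, gave the deposited spot intensity, per the file headers. Its green intensity was already corrected for background and for dye against red, array by array, per the file headers. The Cy3 label went onto cRNA from 200 ng of RNA, per the labels' protocols. No red sample is described in the sources used here. The deposited table's columns each hold a score that matched the log10 intensity, centred and scaled within the array, to within 0.005, with column medians from -0.28 to -0.17.

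Of 62976 spots, 3671 control spots and non-uniform spots were left out, and spots of 1 probe were averaged (56605 probes). The log2 of this deposited green signal, less its 75th percentile over an array's probes, served as the level. A probe was kept if well above background on at least 6 arrays (33450 probes), and the brightest kept probe stood for a gene. Accessions without versions were matched to RefSeq GRCm38.p6, which named 32994 probes. Coordinates of genes and promoters are those of that assembly. The files' grid uses another build, mm9, and none of its coordinates were used. In all 25599 genes were tested, 16103 with a symbol, by a single fit over 19 arrays with limma 3.58.1 (lmFit and eBayes) in R 4.3.3. The 2-sided p-values were adjusted by Benjamini and Hochberg's method across all genes. The fit was checked on simulated data. The number of arrays limits the precision. Correlations between arrays over genes lay from 0.949 to 0.993.

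The members and gene lists were chosen with earlier results of these data known. The rule for named genes took all 10 members, up to 4 called genes per related list and comparison, up to 2 genes per list of another cell type, and the 3 genes most like each member. Nes, Stat3, Il6st, Socs3, Osm and Tnf were named outside it, after their values were seen. Vessel, blood, ependyma and general neuron markers served as checks, with 0 called in any comparison. Their median differences between vehicle and WT were 0.04, 0.26, 0.38 and -0.29. Of the 8 neuron markers, 1 difference was above 0 there, and 8 were above 0 between UA and vehicle (median 0.11). Replicate numbers were checked as pairs: 2, 4 and 2 of 6 same-numbered pairs correlated above 0.1 in the 3 comparisons, so they were not taken as pairs. Alternatives covered the normalization, background, filter, probe choice, slide, sex, marker levels, pairing and each array left out. The planned normexp correction used median in place of mean spot signal, since the files hold no mean.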

Additional observations from a re-analysis of the deposited data

Results flagged for a closer look

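Among the 30 sets of arrays checked (10 members in 3 groups), 2 held an array whose gap to its nearest neighbour was large for the group's range, where chance gives about 1 in 20. The Lcn2 level on APP/PS1 vehicle replicate 4 was 0.16, with the next array at -0.53, a gap that makes up 0.576 of the group's range. The Cxcl14 level on WT replicate 1 was 4.17, with the next at 3.92, a gap of 0.723 of the range.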

How the results depend on the processing

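Between APP/PS1 vehicle and WT, 3 members were called, 5 with slide as a random block (block correlation -0.045), 0 within slide 1, and 3 to 4 with an array left out. Serpina3n and Timp1 joined under the random block (limma adjusted p = 0.0446 and 0.05). Gfap and Aspg kept their calls in 28 of 29 alternatives, with differences from 0.93 to 1.18 and from 0.82 to 1.07, and Osmr in 27. Osmr lost its call with slide as a fixed block and within slide 1, where the difference rests on the same vehicle arrays. UA against vehicle gave 0 calls in every alternative run. Between UA and WT, 1 member was called. The count was 0 with normexp and quantile normalization, deposited values, no filter, slide as a fixed block, males only, the choroid plexus level as a covariate, the replicate block, or signal before dye normalization. It was 2 with the mean of all kept probes or the oligodendrocyte level as a covariate, 3 with slide as a random block, and 0 to 2 with an array left out. The last covariate and the signal before dye normalization were chosen after seeing the data. The cause of these shifts was not tested. The replicate block changed no other call.

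Differences that changed sign were those of uncalled members. With slide as a fixed block, UA minus WT was 0.13 for S1pr3, -0.12 for Timp1 and -0.49 for Cd44. UA minus vehicle for Cxcl14 was -0.016 with sex as a covariate, -0.14 in males and -0.0060 with the replicate block. Vehicle minus WT for Cd44 was 0.26 with the choroid plexus level and 0.10 with the oligodendrocyte level as a covariate. With an array left out, vehicle minus WT ran from -0.0053 to 0.090 for Cxcl14 and from -0.38 to 0.015 for Cd44, UA minus WT from -0.062 to 0.0069 for Lcn2, and UA minus vehicle from -0.011 to 0.092 for Cxcl14. No slide held both UA and WT, so no value within a slide exists there.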

Other observations

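The members' mean level per array, over all 10 genes, ran from 0.10 to 0.35 in WT, from 0.57 to 0.75 in APP/PS1 vehicle and from 0.42 to 0.55 in UA. The lowest vehicle value lay just above the highest UA value, while each of the 10 members by its brightest probe overlapped between these groups. How often the mean of another set of genes separates them was not computed. The members' mean weights each gene equally on the log2 scale, and no test was made of it.

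Pairs of members differed in sign and size of their relation within groups. After each group's mean was subtracted, Pearson's r over 19 arrays was farthest from 0 for Vim and Cd44, at -0.79, followed by Serpina3n and Cd44 at -0.61 and Aspg and Lcn2 at -0.58. The highest values above 0 were 0.57 between Vim and Timp1, 0.56 between Gfap and Serpina3n and 0.47 between Gfap and Vim. These are descriptions over arrays that share slides and tissue composition.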
